A study of Mus musculus with 18 samples.

Results

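The 33 genes described here encode proteins of DNA repair and of the DNA damage checkpoint. They were taken from a list of gene symbols that was chosen with earlier results of these data known. The matching to the deposited gene table used symbols alone, and all 33 were found among its 45777 genes. Their shares of calls beside those of all genes are therefore a description. Their RNA was measured in RAW264.7, an established mouse line of macrophage-like cells that the labels give as wild type. The cells were treated for 6 h in DMEM without serum, and each of the 6 groups has 3 libraries. One group received the vehicle DMSO, and single compounds were given as cGAMP or as SB24011, each at 20 uM. The other 3 groups received cGAMP at 20 uM together with a second compound, which was SB24011 at either 10 or 20 uM, or 7a at 20 uM. cGAMP is the cyclic dinucleotide that activates the innate immune adaptor STING. By the series title SB24011 blocks the binding of STING to TRIM29, a ubiquitin ligase, and the labels call 7a its negative analog. The labels do not say that the 3 libraries of a group came from separate cultures, so the p-values below measure only the spread between libraries, which may be technical.

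Homologous recombination repairs double-strand breaks and broken replication forks by copying the sister chromatid, so its genes are used mainly in cells that replicate their DNA. The Fanconi anemia pathway removes crosslinks between DNA strands, mismatch repair removes replication errors, and base excision repair removes damaged or misplaced bases such as uracil. The kinases ATM and ATR sense breaks and stalled forks and act through CHEK2 and CHEK1 to hold the cell cycle. Many of these genes are transcribed around the start of S phase, when E2F factors are active.

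The promoters are shown first because E2F-type letters near a start are a known feature of S phase genes. Promoters from 250 bases before to 50 after the start base were taken from RefSeq (GRCm38.p6). All 33 members have a RefSeq position, but the set of promoters used had an entry for 27 of them, with 28 promoters in all. Exo1, Rad50, Rad54b, Xrcc2, Fancd2 and Nbn had none. The E2F-type words TTTCGCGC, TTTGGCGC, TTTCCCGC and TTTGCCGC were searched on both strands, and 6 members held a match. The matches with their 10 flanking bases, on the gene's strand and with the matched word in capitals, lie at Brca2 (chr5:150522443-150522470, plus strand), Bard1 (chr1:71103164-71103191, minus strand), Fancg (chr4:43010336-43010363, minus strand), Chek2 (chr5:110839821-110839848, plus strand), Topbp1 (chr9:103305188-103305215, plus strand), Msh6 (chr17:87975055-87975082, plus strand).
Brca2: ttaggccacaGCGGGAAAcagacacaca
Bard1: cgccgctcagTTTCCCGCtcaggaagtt
Fancg: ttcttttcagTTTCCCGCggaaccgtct
Chek2: gggattagccGCGGGAAAccaagacgtc
Topbp1: cgctcggttgGCGCGAAAgtcggttccc
Msh6: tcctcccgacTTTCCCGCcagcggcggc

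The words were found in 22.2% of the 27 member genes, in 4.68% of the 10459 tested genes with an entry and in 2.6% of all 27025 genes with an entry. CCAAT, searched on both strands, was found in 59.3% of the member genes and in 43.5% of the tested genes with an entry. The word TTTGAA of the cell cycle homology region was found in 7.41% and 15.3%. None of these words contains another, and a match is a description of letters, not a binding site. The E2F-type match of Bard1 lies outside the RefSeq span of its gene and the other 5 lie inside, since the start base of a promoter need not be the first base of the span. The 6 members with an E2F-type match and the 21 members without one had median log2 fold changes of -0.65 and -0.67 under SB24011 alone, with 5 of 6 and 16 of 21 called lower by the test described below, where 24.3% of all tested genes were.

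The full windows of 300 bases follow for the 4 members with an entry that had the largest called falls under SB24011 (Ung, Msh6, Xrcc3 and Fancb) and for the 2 with the smallest changes (Xrcc1 and Fance). Capitals mark E2F-type and CCAAT matches on either strand. The windows lie at Ung (chr5:114130185-114130484, plus strand), Msh6 (chr17:87974800-87975099, plus strand), Xrcc3 (chr12:111813830-111814129, minus strand), Fancb (chrX:164980342-164980641, plus strand), Xrcc1 (chr7:24546449-24546748, plus strand), Fance (chr17:28313280-28313579, plus strand).
Ung: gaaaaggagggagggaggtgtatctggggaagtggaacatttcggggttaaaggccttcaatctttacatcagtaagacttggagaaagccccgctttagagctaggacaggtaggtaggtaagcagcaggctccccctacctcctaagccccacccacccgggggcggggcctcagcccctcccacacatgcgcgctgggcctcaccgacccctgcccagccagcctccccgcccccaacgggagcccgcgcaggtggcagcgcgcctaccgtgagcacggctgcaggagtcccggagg
Msh6: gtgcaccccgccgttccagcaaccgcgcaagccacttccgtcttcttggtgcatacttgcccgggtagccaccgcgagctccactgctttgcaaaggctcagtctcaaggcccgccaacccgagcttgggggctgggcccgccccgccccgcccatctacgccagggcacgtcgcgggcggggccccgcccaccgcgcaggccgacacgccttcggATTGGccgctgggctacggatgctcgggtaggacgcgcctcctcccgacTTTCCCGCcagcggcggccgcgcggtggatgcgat
Xrcc3: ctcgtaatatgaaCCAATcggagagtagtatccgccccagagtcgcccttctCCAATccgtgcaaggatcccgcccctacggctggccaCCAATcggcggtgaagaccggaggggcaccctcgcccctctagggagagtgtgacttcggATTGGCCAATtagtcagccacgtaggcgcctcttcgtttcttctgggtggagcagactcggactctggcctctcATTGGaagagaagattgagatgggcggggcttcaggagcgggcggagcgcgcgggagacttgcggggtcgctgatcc
Fancb: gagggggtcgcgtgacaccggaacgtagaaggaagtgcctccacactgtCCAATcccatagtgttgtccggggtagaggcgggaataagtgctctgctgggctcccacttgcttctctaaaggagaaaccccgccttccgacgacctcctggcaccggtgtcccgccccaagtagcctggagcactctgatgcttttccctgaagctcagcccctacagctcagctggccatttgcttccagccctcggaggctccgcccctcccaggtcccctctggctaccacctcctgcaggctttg
Xrcc1: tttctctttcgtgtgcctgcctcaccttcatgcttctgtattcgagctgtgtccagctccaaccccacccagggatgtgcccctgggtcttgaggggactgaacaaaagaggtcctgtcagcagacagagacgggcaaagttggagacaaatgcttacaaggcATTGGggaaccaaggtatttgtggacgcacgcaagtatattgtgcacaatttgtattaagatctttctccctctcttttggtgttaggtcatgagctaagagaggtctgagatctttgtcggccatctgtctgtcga
Fance: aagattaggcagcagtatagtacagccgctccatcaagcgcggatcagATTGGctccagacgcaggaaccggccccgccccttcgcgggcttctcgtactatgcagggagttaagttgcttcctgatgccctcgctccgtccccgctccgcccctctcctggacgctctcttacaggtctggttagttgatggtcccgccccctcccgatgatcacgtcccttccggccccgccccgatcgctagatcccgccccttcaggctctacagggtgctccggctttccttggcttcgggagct

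Among these windows, that of Msh6 held an E2F-type word and those of the other 5 held none, including the window of Ung, the member with the largest fall. CCAAT or its reverse complement ATTGG stood in the windows of Msh6, Xrcc3, Fancb, Xrcc1 and Fance.

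The libraries held 45165780 to 65810517 counts, and no pair of libraries was identical. The filter on low counts left 14650 genes, and all 33 members passed it. The lowest member count in any library was 49, for Xrcc3. Of 8 macrophage markers, all 8 were tested and their summed level was 3840 to 5550 CPM (counts scaled to library size, with library sizes adjusted by the trimmed mean of M-values, TMM). Lyz2 (1500 to 3430) and Csf1r (734 to 1280) had the highest levels, Fcgr1 ranged from 17.1 to 392, and Mrc1 was at only 0 to 1.18. Markers of T cells, B cells and fibroblasts summed to at most 0.145 CPM, with Cd3e, Cd3d and Cd8a at 0, and those of epithelial cells were at 0 in every library. The 3 endothelial markers, chiefly the receptor gene Kdr, summed to 0.431 to 0.47 CPM with DMSO, 0.345 to 0.96 with SB24011 and 2.23 to 2.67 with cGAMP. With cGAMP they summed to 4.33 to 4.82 at 10 uM SB24011, 3.24 to 5.08 at 20 uM and 2.35 to 3.48 with 7a; their part in the results was not tested.

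Compared per length, the members spanned a wide range of levels. In the DMSO libraries the mean FPKM (fragments scaled to transcript length and library size) was highest for Parp1, the sensor of strand breaks, at 69.9, then for Topbp1 at 35.1 and Msh6 at 30.2. Rad54l (19.6), Xrcc1 (17.6), Rad50 (15.8) and Ung (15.6) followed. The lowest were Polq (3.17), Fancc (2.57) and Xrcc3 (0.986), and the values of Xrcc3 rested on few counts.

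SB24011 alone and cGAMP alone each lowered most members, and with 7a on top of cGAMP no member passed the threshold. The members' summed level was 1798 ± 36.4 CPM with DMSO (SD, n = 3), 1672 ± 61.2 with cGAMP and 1232 ± 29.5 with SB24011. On top of cGAMP it was 1411 ± 20.1 at 10 uM SB24011, 1342 ± 77.2 at 20 uM and 1684 ± 68.2 with 7a. This sum includes Atm, which had 141, 134 and 147 CPM with DMSO and 472, 374 and 396 with cGAMP, where most members fell. The size of the sum's fall in the cGAMP groups, and its order over the groups, therefore do not describe the other members. In RNA from whole cultures, fewer cells that express a gene and less of its RNA per cell cannot be told apart.

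**Figure D1:**
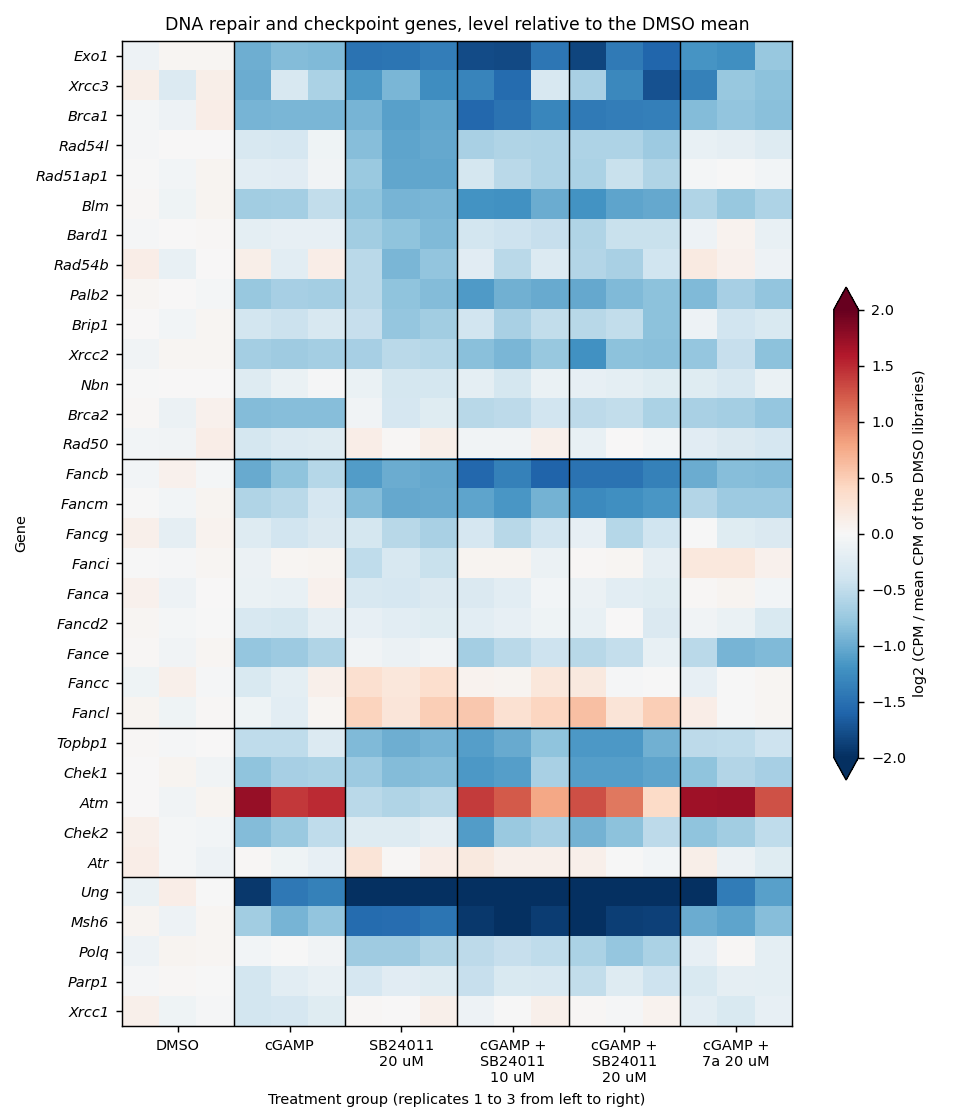
Level of each of the 33 members in each of the 18 libraries, as log2 of its TMM-scaled CPM over the mean of the 3 DMSO libraries (colour scale, limited to 2 on either side of 0). Rows are genes, in blocks for homologous recombination, the Fanconi anemia pathway, checkpoint kinases and mediators, and mismatch, base excision and break repair, and columns are libraries; the 3 SB24011 columns are lower than DMSO for most genes, and Atm stands out as high in every group that received cGAMP.

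With 20 uM SB24011 against DMSO, edgeR's quasi-likelihood test called 26 of 33 members lower and 2 higher at an adjusted p under 0.05, where 24.3% of all tested genes were called lower and 20.4% higher. The median log2 fold change was -0.64 over the members and -0.0067 over all genes. With 20 uM cGAMP against DMSO, 21 members were called lower and 1 higher, against 19.8% and 15.6% of all genes, with medians of -0.31 and -0.057. These comparisons share the DMSO libraries. All 3 treated libraries lay below all 3 DMSO libraries for 27 members under SB24011 and for 25 under cGAMP, as they did for 30% and 27.6% of all genes. With a block for library set, a grouping inferred from the numbers in the titles, SB24011 had 27 members called lower and 3 higher. Of all 14650 genes 4208 and 3603 were called under that block.

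Scaling mattered for the direction of calls over all genes. Of all genes called with cGAMP, 44.1% were higher by TMM, 24.9% when libraries were scaled by total counts alone and 33.2% in limma on the quantile-normalized values. Total counts moved the median of all genes from -0.06 to -0.19 and that of the members from -0.31 to -0.44, so the members' median relative to that of all genes was -0.25 under both. For SB24011 against DMSO the share of calls that were higher went from 45.7% to 57.4%, and the members' relative median was -0.63 under both scalings. No member's call turned its direction under any alternative.

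Homologous recombination genes fell almost throughout under SB24011: 13 of 14 were called lower (92.9%) and 0 higher, where 24.3% and 20.4% of all genes were. Rad50, at 0.093, was the 1 not called. Brca1, the tumor suppressor that directs breaks into recombination (chr11:101488761-101551955, GRCm38), measured 68.2, 65.4 and 76.6 CPM in the DMSO libraries, 36.9, 37.1 and 36.99 with cGAMP and 36.9, 33.1 and 34.04 with SB24011. On top of cGAMP it measured 23.6, 25.1 and 28.3 at 10 uM SB24011, 26.2, 26.8 and 27.1 at 20 uM and 38.4, 40.5 and 39.1 with 7a. All treated libraries were below all DMSO libraries, and those with both compounds were the lowest. The log2 fold change was -1.01 ± 0.068 (SE) with SB24011 (edgeR, adjusted p = 5.79e-09) and -0.92 ± 0.068 (SE) with cGAMP (adjusted p = 1.92e-08).

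Exo1, the exonuclease that trims break ends and also serves mismatch repair, had 32.8, 36.2 and 36.1 CPM with DMSO, 17.8, 19.1 and 18.9 with cGAMP and 12.6, 12.8 and 13.4 with SB24011. The 3 groups did not overlap, and SB24011 gave the lowest values. Its log2 fold change was -1.44 ± 0.12 (SE) with SB24011 (edgeR, adjusted p = 1.05e-07) and -0.91 ± 0.12 (SE) with cGAMP (adjusted p = 1.78e-05). With cGAMP present it fell by a further 0.69 on the log2 scale at 20 uM SB24011, to 9.83, 13.2 and 11.6 CPM.

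Rad54l, a motor protein that acts in the search for the repair template, had 87.1, 89.6 and 89.3 CPM with DMSO, 71.4, 70.6 and 83.8 with cGAMP, and 49.3, 42.8 and 43.8 with SB24011. On top of cGAMP it had 56.7, 58.6 and 57.7 at 10 uM SB24011, 57.5, 57.7 and 53.7 at 20 uM and 79.8, 77.9 and 74.02 with 7a. The libraries with SB24011 alone were the lowest, below all of those with both compounds. Its log2 fold change was -0.97 ± 0.066 (SE) with SB24011 and -0.24 ± 0.065 (SE) with cGAMP, and the latter call was lost in 5 of 16 alternatives (edgeR, adjusted p up to 0.171). Rad54l overlaps Lrrc41 in the genome, whose change with SB24011 was 0.0096 and not called.

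Rad51ap1, which promotes strand pairing in recombination, and Bard1, the partner of BRCA1, had the same order of the 6 group means as Rad54l, with SB24011 alone lowest. Rad51ap1 fell by 0.93 on the log2 scale with SB24011 and had -0.17, not called, with cGAMP. Bard1 fell by 0.79 with SB24011 and had -0.18, not called, with cGAMP. Rad54b, a relative of Rad54l, fell by 0.73 with SB24011 and had 0.022 with cGAMP. The helicase gene Blm (-0.88 and -0.62), Palb2, which links BRCA1 to BRCA2 (-0.73 and -0.70), the helicase gene Brip1 (-0.64 and -0.37) and Xrcc2, a strand exchange factor (-0.59 and -0.69) fell with SB24011 and with cGAMP, in that order of values. Xrcc3, another such factor, fell by 1.09 with SB24011, and its change of -0.63 with cGAMP was not called; it overlaps Klc1, which has more counts and whose change with SB24011 of -0.068 was not called. Nbn, a subunit of the complex that binds break ends, fell by 0.28 with SB24011 and had -0.14, not called, with cGAMP. The call of Nbn was lost with total counts alone and without replicate 2 or 3 of every group (edgeR, adjusted p 0.0525 to 0.096), and that of Brip1 with cGAMP without replicate 3 of every group (adjusted p = 0.0591).

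Brca2, a tumor suppressor needed for recombination (chr5:150522297-150570147), followed another order. It had 39.9, 36.2 and 41.4 CPM with DMSO, 21.4, 21.8 and 21.7 with cGAMP and 37.2, 31.1 and 33.3 with SB24011. With cGAMP it had 26.7, 27.2 and 30.2 at 10 uM SB24011, 27.4, 27.8 and 25.4 at 20 uM and 24.99, 24.4 and 22.97 with 7a. The libraries with cGAMP alone were the lowest of all, and the SB24011 libraries overlapped those with DMSO. It fell by 0.86 on the log2 scale with cGAMP (edgeR, adjusted p = 9.28e-08) and by 0.21 with SB24011, a call lost in 8 of 16 alternatives, among them leaving out DMSO replicate 1 or 3 or SB24011 replicate 2 or 3 (adjusted p 0.0675 to 0.211 over the 8). On top of cGAMP it rose, with a log2 fold change of 0.31 ± 0.073 (SE) at 20 uM SB24011 (adjusted p = 0.00252, and 0.124 in limma on the quantile-normalized values). The fall with cGAMP and the rise on top of it share the cGAMP libraries.

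Rad50, another subunit of the break-end complex, had 86.8, 86.04 and 99.1 CPM with DMSO, 70.7, 75.02 and 76.1 with cGAMP, 99.3, 92.1 and 98.5 with SB24011 and 82.2, 90.9 and 86.8 with cGAMP and 20 uM SB24011. The cGAMP libraries were the lowest of these 4 groups. It fell by 0.29 with cGAMP and rose by 0.23 when 20 uM SB24011 was added, a call lost without replicate 2 of every group (edgeR, adjusted p = 0.106).

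**Figure D2:**
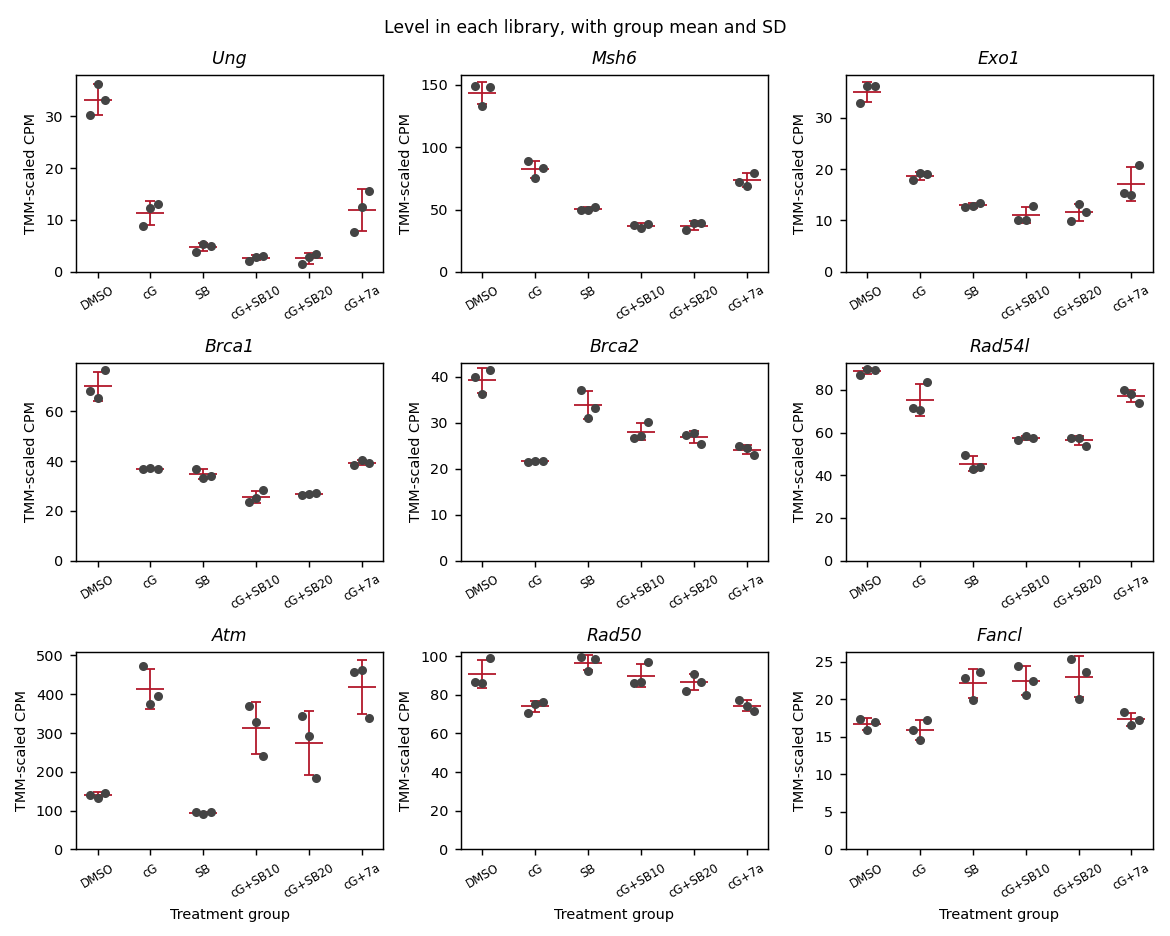
TMM-scaled CPM of 9 members in each library (points) by treatment group, with the group mean (horizontal line) and SD (bar, n = 3); cG is 20 uM cGAMP, SB is 20 uM SB24011, SB10 and SB20 are 10 and 20 uM SB24011, and 7a is 20 uM. Ung, Msh6, Exo1 and Brca1 are lower in every treated group, Brca2 and Rad50 are lowest with cGAMP, Atm is above its DMSO libraries in every cGAMP group, and Fancl is higher wherever SB24011 was present.

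Of the 9 Fanconi anemia genes, 6 were called lower and 2 higher with SB24011. These were 66.7% and 22.2%, where 24.3% and 20.4% of all genes were, so the share of rises was near that of all genes. Of the 2 rises, 0 were kept in all 16 alternatives. With cGAMP 5 were called lower and 0 higher (55.6% and 0%), where 19.8% and 15.6% of all genes were. Fancm, which senses the crosslinked fork, fell by 0.96 on the log2 scale with SB24011 and by 0.49 with cGAMP. Fancb, a subunit of the core ubiquitin ligase complex, fell by 1.04 and 0.79; it overlaps Mospd2, whose change with SB24011 of -0.19 was not called. The core subunit genes Fancg (-0.51) and Fanca (-0.32) and the genes of the ubiquitinated pair, Fanci (-0.42) and Fancd2 (-0.20), fell with SB24011. Of these calls, that of Fancd2 was lost in 10 of 16 alternatives (edgeR, adjusted p 0.0653 to 0.17), and that of Fancg once, without replicate 3 of every group (adjusted p = 0.0726). Fanci overlaps Polg, which fell by 0.37, and Fanca overlaps Zfp276, which rose by 0.33.

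With cGAMP, Fanca (-0.059) and Fanci (-0.0038) were not called. Fancd2 (-0.28) and Fancg (-0.31) fell with cGAMP. The call of Fancd2 was lost without replicate 1 or 2 of every group (edgeR, adjusted p 0.0919 and 0.069), and that of Fancg in 13 of 16 alternatives (adjusted p 0.0511 to 0.248). Fance, which bridges the core complex to FANCD2, had 16.4, 15.3 and 16.4 CPM with DMSO, 9.34, 9.64 and 10.6 with cGAMP and 15.2, 14.7 and 15.3 with SB24011. The cGAMP libraries were below all DMSO libraries, and it fell by 0.70 with cGAMP (adjusted p = 0.00011). With SB24011 its change of -0.087 was not called.

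Fancl, the catalytic ubiquitin ligase of the core complex (chr11:26387084-26471883), went the other way. It had 17.4, 15.9 and 17.04 CPM with DMSO, 15.9, 14.5 and 17.3 with cGAMP and 22.9, 19.9 and 23.6 with SB24011. On top of cGAMP it had 24.4, 20.6 and 22.5 at 10 uM SB24011, 25.4, 20.04 and 23.6 at 20 uM and 18.3, 16.6 and 17.2 with 7a. Every library with SB24011 was above every library without it. Its log2 fold change was 0.40 ± 0.095 (SE) with SB24011 (edgeR, adjusted p = 0.00229, and 0.0567 without replicate 3 of every group) and 0.53 ± 0.10 (SE) at 20 uM SB24011 with cGAMP (adjusted p = 0.000261). Fancl overlaps Vrk2, which has more counts; Vrk2 had -0.072 with SB24011, not called, and rose by 0.88 with cGAMP, where Fancl had -0.075. Fancc, another core subunit, rose by 0.30 with SB24011, a call lost in 8 of 16 alternatives, among them leaving out DMSO replicate 1 or 3 or SB24011 replicate 1 or 3 (adjusted p 0.0701 to 0.227 over the 8). It overlaps Aopep, which has more counts and rose by 0.54, and the deposited counts' strand setting is not given in the sources used here, so their reads cannot be told apart.

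Of the 5 checkpoint genes, 3 were called lower (60%) and 0 higher with SB24011, where 24.3% and 20.4% of all genes were. With cGAMP 3 were called lower (60%) and 1 higher (20%), where 19.8% and 15.6% of all genes were. Atm, the kinase that responds to double-strand breaks (chr9:53437122-53536828), was the member that rose with cGAMP. It had 141, 134 and 147 CPM with DMSO, 472, 374 and 396 with cGAMP and 96.8, 92.5 and 95.8 with SB24011. With cGAMP it had 370.3, 328 and 241 at 10 uM SB24011, 345, 293 and 184 at 20 uM and 457, 462 and 339 with 7a. Every library with cGAMP was above every library without it, and the spread was widest with cGAMP and 20 uM SB24011. Its log2 fold change was 1.56 ± 0.20 (SE) with cGAMP (edgeR, adjusted p = 2.29e-05), a call kept in all 16 alternatives. With SB24011 alone it was -0.57 ± 0.20 (SE) (adjusted p = 0.0299), a call lost in 8 of 16 alternatives, among them leaving out DMSO replicate 1 or 3 or any 1 of the SB24011 libraries (adjusted p 0.0521 to 0.155 over the 8). With cGAMP and 20 uM SB24011 against cGAMP it fell by 0.59, a call lost in 4 alternatives, among them leaving out cGAMP replicate 1 or replicate 3 with both compounds (adjusted p 0.0709 to 0.0934 over the 4).

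Topbp1, which activates ATR, had 203, 198 and 201 CPM with DMSO, 141, 141 and 167 with cGAMP and 109, 102 and 105 with SB24011. The groups did not overlap. It fell by 0.93 on the log2 scale with SB24011 and by 0.42 with cGAMP. Chek1, the kinase downstream of ATR, had 33.3, 34.1 and 31.6 CPM with DMSO, 18.97, 20.8 and 21.3 with cGAMP and 20.02, 18.1 and 18.3 with SB24011. The cGAMP and SB24011 libraries overlapped each other and lay below those with DMSO, and it fell by 0.81 with SB24011 and by 0.70 with cGAMP. Chek2, the kinase downstream of ATM, fell by 0.70 with cGAMP. With SB24011 it had -0.24 and was not called. With the library set, inferred from the numbers in the titles, as a block it was called at -0.24 (edgeR, adjusted p = 0.036). Atr had 82.7, 72.9 and 70.1 CPM with DMSO, 76.1, 70.8 and 67.1 with cGAMP and 90.2, 76.5 and 82.2 with SB24011, and these groups overlapped. It was called in no comparison by the fit that gave the counts above, which has no block. Under the block it was called higher with SB24011 alone, at 0.14 (adjusted p = 0.0185). At 10 uM SB24011 on top of cGAMP its 0.21 was called in 4 of 16 alternatives, and with both compounds against SB24011 its -0.12 was called, at -0.30, with total counts alone (adjusted p = 0.0109).

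Among the 5 genes of mismatch repair, base excision and break repair were the 2 largest falls of the members with SB24011. Of the 5, 4 were called lower with SB24011 and 4 with cGAMP (80% in both), where 24.3% and 19.8% of all genes were. Ung, Msh6 and Parp1 were lower in both. Polq was called with SB24011 and not with cGAMP, and Xrcc1 with cGAMP and not with SB24011. These differences were not tested. Ung, which cuts uracil out of DNA (chr5:114130366-114139321), had 30.2, 36.3 and 33.1 CPM with DMSO, 8.74, 12.3 and 13.03 with cGAMP and 3.88, 5.28 and 5.05 with SB24011. With cGAMP it had 2.16, 2.79 and 3.13 at 10 uM SB24011, 1.45, 2.90 and 3.40 at 20 uM and 7.68, 12.6 and 15.6 with 7a. The DMSO libraries were the highest, the libraries with both compounds were all below those with SB24011 alone, and the 7a libraries overlapped those with cGAMP. Its log2 fold change was -2.81 ± 0.27 (SE) with SB24011 (edgeR, adjusted p = 8.81e-07) and -1.55 ± 0.26 (SE) with cGAMP (adjusted p = 0.000226). Alkbh2, which overlaps Ung, fell by 0.55 with SB24011, to a mean of 7.38 CPM where that of Ung was 4.74. With DMSO the means were 10.8 and 33.2 CPM, and with both compounds at 20 uM 6.93 and 2.58.

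Msh6, which recognizes mismatched bases (chr17:87975050-87990892), had 149, 133 and 148 CPM with DMSO, 89.1, 75.4 and 83.01 with cGAMP and 49.5, 50.04 and 51.9 with SB24011. With cGAMP it had 37.6, 35.1 and 38.6 at 10 uM SB24011, 33.3, 39.1 and 39.1 at 20 uM and 72.05, 68.7 and 79.6 with 7a. DMSO, cGAMP and SB24011 did not overlap, and every library with both compounds was below those with SB24011 alone. Its log2 fold change was -1.51 ± 0.077 (SE) with SB24011 (edgeR, adjusted p = 2.67e-10), the smallest adjusted p of the members in that comparison, and -0.80 ± 0.076 (SE) with cGAMP (adjusted p = 3.57e-07). Fbxo11, which overlaps Msh6, had 0.14 with SB24011 and was not called.

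Polq, the polymerase of microhomology end joining, fell by 0.67 on the log2 scale with SB24011 and had -0.044, not called, with cGAMP. Parp1 fell by 0.27 with SB24011 and by 0.24 with cGAMP, the latter call being lost without cGAMP replicate 1 and without replicate 2 or 3 of every group (edgeR, adjusted p 0.0589 to 0.0689). Xrcc1, the scaffold of single-strand break repair, had 52.9, 46.7 and 48.8 CPM with DMSO, 38.5, 39.1 and 42.05 with cGAMP and 50.6, 49.97 and 53.3 with SB24011. The cGAMP libraries were the lowest of these 3 groups, and it fell by 0.31 with cGAMP. With SB24011 it had 0.051 and was not called.

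In cells that also received cGAMP, 20 uM SB24011 lowered Ung and Msh6 most, as it did by itself. Against cGAMP alone, 15 of 33 members were called lower and 5 higher, where 20.6% and 21.7% of all genes were, with medians of -0.25 over the members and 0.022 over all genes. Ung (-2.12 ± 0.29 (SE), edgeR, adjusted p = 3.01e-05) and Msh6 (-1.15 ± 0.078 (SE), adjusted p = 9.39e-09) had the largest falls. Of the homologous recombination genes 7 fell and 2 rose, of the Fanconi anemia genes 2 fell and 2 rose, of the checkpoint genes 3 fell, and of the remaining 5 genes 3 fell and 1 rose. The 5 that rose were Brca2, Rad50, Fancl, Fance (0.32, a call lost in 7 of 16 alternatives, adjusted p 0.0738 to 0.203) and Xrcc1 (0.33). Except Fancl, all of these had fallen with cGAMP alone, and those falls share the cGAMP libraries with these rises.

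At 10 uM SB24011 with cGAMP, 14 members were called lower and 4 higher than with cGAMP alone, against 19.1% and 19.9% of all genes, with a median of -0.24. Ung had -2.07 at 10 uM and -2.12 at 20 uM, and Msh6 -1.15 and -1.15, side by side against the same cGAMP libraries. No difference between the doses passed the test: edgeR called 0 of 33 members lower and 0 higher at 20 uM against 10 uM, where 0% and 0% of all genes were called. DESeq2 and limma also called 0. At an unadjusted p under 0.05 there were 1 member, Polq, at -0.18, and 404 genes (2.76%). Differences between doses ran from -0.20 (Xrcc3) to 0.17 (Fance), and 30 of 33 intervals (95%) lay within 0.5 of 0 on the log2 scale. The widest bounds were -0.87, for Xrcc3, and 0.60, for Ung.

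The analog 7a did not move the members detectably on top of cGAMP, and SB24011 at the same 20 uM did. With 7a and cGAMP against cGAMP, edgeR called 0 members lower and 0 higher, and 0% and 0% of all genes. At an unadjusted p under 0.05 there were 4 members and 1208 genes (8.25%). DESeq2 called 18 genes lower and 20 higher with no member among them, limma called 0, and the fit with the library set as a block called 4 lower and 4 higher with no member. Member differences ran from -0.31 (Xrcc3) to 0.18 (Fanci), and 31 of 33 intervals lay within 0.5 of 0; the widest bounds were -0.97, for Xrcc3, and 0.64, for Ung. A difference within these intervals may have gone undetected.

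Compared directly, 20 uM SB24011 with cGAMP gave 18 members lower and 4 higher than 20 uM 7a with cGAMP, where 16.7% and 19.7% of all genes were called, with medians of -0.27 and 0.0063. Ung differed by -2.20 ± 0.29 (SE) (edgeR, adjusted p = 2.74e-05), Msh6 by -0.98 ± 0.077 (SE) (adjusted p = 6.56e-08), Topbp1 by -0.60 and Rad54b by -0.59. Fancl (0.41), Fance (0.40), Xrcc1 (0.25) and Rad50 (0.22) were higher with SB24011, and each of these 4 calls was lost in at least 1 of 16 alternatives. Brca2, at 0.15, was not called here.

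**Figure D3:**
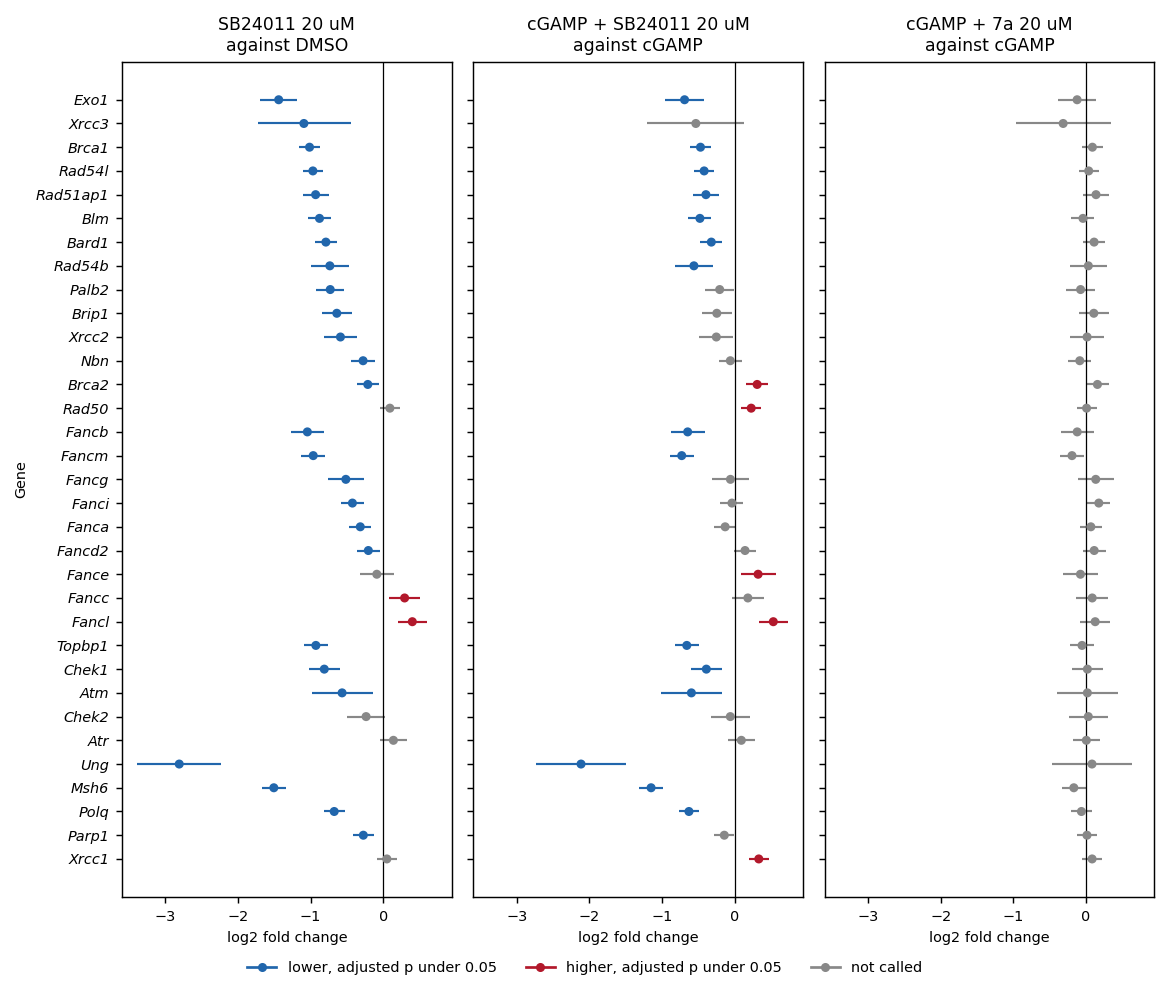
Log2 fold change (points) with its 95% interval (lines) for each of the 33 members in 3 comparisons, from edgeR; colour marks calls at an adjusted p under 0.05, blue for lower, red for higher and grey for not called. Ung lies at -2.81 in the left panel and -2.12 in the middle panel, and every member is grey in the right panel, which compares cGAMP with 7a against cGAMP.

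With SB24011 already present, members were called in both directions when cGAMP was added, and the share that rose was that of all genes. With both compounds at 20 uM, 9 members (27.3%) were called lower and 5 (15.2%) higher than with SB24011 alone, where 12.4% and 15% of all genes were called. The medians were -0.12 over the members and -0.014 over all genes. Atm rose, with a log2 fold change of 1.53 ± 0.20 (SE) (edgeR, adjusted p = 3.66e-05), and Fanci (0.38), Rad51ap1 (0.37), Rad54l (0.31) and Bard1 (0.29) rose less. Ung (-0.86), Chek2 (-0.52), Msh6 (-0.44), Fancb (-0.39), Brca1 (-0.38), Xrcc2 (-0.35), Brca2 (-0.34), Fancm (-0.25) and Blm (-0.22) were called lower. Of these calls, 3 of the 9 falls and 2 of the 5 rises were kept in all 16 alternatives. With the library set as a block, 14 members were called lower, with Fance, Rad50, Chek1, Topbp1 and Parp1 added. Scaled by total counts alone, 18 were lower and 2 higher, and the share of calls over all genes that were higher went from 54.7% to 24.2% (33.6% in limma); the median of all genes moved from -0.01 to -0.18, and the members' median relative to it was -0.11 under both scalings.

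The test of the interaction asked whether SB24011 had the same effect with cGAMP as without it; a positive value means a smaller fall, or a larger rise, with cGAMP. It called 0 members lower and 3 higher, against 0.123% and 0.246% of all genes. The 3 were Rad54l at 0.55 ± 0.093 (SE) (edgeR, adjusted p = 0.0126), Brca1 at 0.54 ± 0.10 (SE) (adjusted p = 0.0164) and Brca2 at 0.52 ± 0.10 (SE) (adjusted p = 0.0342), all of homologous recombination. At an unadjusted p under 0.05 there were 20 members, all of them positive, and 1312 genes (8.96%). The value was positive for 30 of 33 members and for 58.7% of all genes, with medians of 0.36 and 0.039. No alternative called a member lower; DESeq2 called 7 higher, limma 1, and a fit of only the 4 groups involved 0. None of the 3 calls was kept in all 22 alternatives. Of all genes called, 66.7% were higher by TMM, 51.3% by the size factors of the relative log expression method and 30.3% by total counts. Exo1 had the largest estimate of the members, 0.75 ± 0.18 (SE), and was not called (adjusted p = 0.0829). Calls were not confined to homologous recombination genes, of which 3 of 14 members were called (21.4%, median 0.50). Of the 14 genes of the MCM helicase and of S phase entry, described below, 3 were called higher (21.4%, median 0.45). Of the 21 other checkpoint and damage signalling genes 2 were called higher, and of the 14 mitosis genes 0.

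Other genes of the same pathways, from lists that do not hold the members, were called in both directions with SB24011 alone. The shares differed between lists. Of the other homologous recombination genes 50% fell and 18.2% rose, and of the other Fanconi anemia genes 63.6% and 18.2%. Of the other checkpoint genes 52.4% fell and 4.76% rose. Over all genes 24.3% fell and 20.4% rose with SB24011, and 19.8% and 15.6% with cGAMP. These are the shares to set beside the counts of each list below. Of 22 other homologous recombination genes 11 fell and 4 rose (median -0.34), and with cGAMP 11 fell and 3 rose. The fork repair genes Tonsl (-0.95) and Mms22l (-0.81) and the nuclease subunit Eme1 (-0.64) fell most with SB24011, and Mus81 (0.64), the catalytic partner of EME1, Rad51b (0.64) and Rad52 (0.31) rose. Of 11 other Fanconi anemia genes 7 fell and 2 rose with SB24011, and 7 fell with cGAMP. Rfwd3 (-0.58), the ubiquitin conjugating enzyme gene Ube2t (-0.48) and Faap24 (-0.46) fell, and Faap100 (0.53) and Faap20 (0.35) rose.

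Of 21 other checkpoint and damage signalling genes 11 fell and 1 rose with SB24011 (median -0.32), and the same numbers fell and rose with cGAMP. Clspn, the adaptor by which ATR activates CHEK1, fell by 1.78 on the log2 scale with SB24011, Tipin of the fork protection complex by 1.07 and the phosphatase gene Cdc25a by 1.02. Of 6 other mismatch repair genes 3 fell and 1 rose, among them Pms2 at -0.59, Pms1 at -0.33 and Mlh3 at 0.55. With cGAMP 4 of the 6 fell and 1 rose.

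Base excision and single-strand break repair genes outside the members were divided with SB24011, 7 of 19 falling and 6 rising (median -0.0041). These were 36.8% and 31.6%, where 24.3% and 20.4% of all genes fell and rose. The largest falls were those of Fen1 (-1.41), Apex2 (-0.91) and Lig1 (-0.90), of which Fen1 and Lig1 also process and join Okazaki fragments in replication. Aptx (0.63) and Nthl1 (0.47) were among those that rose. With cGAMP 10 fell and 1 rose. Of 20 nucleotide excision repair genes 4 fell (20%) and 8 rose (40%) with SB24011. Among them Xpa (0.66), Uvssa (0.49) and Xpc (0.49) rose, while Gtf2h5 (-0.76), Cetn2 (-0.47) and Ercc8 (-0.37) fell. With cGAMP 3 fell and 1 rose, which is 15% and 5%, where 19.8% and 15.6% of all genes did. Of 15 end joining genes 2 fell (13.3%) and 4 rose (26.7%) with SB24011, near the shares of all genes. Shld3 (-0.93) and the Ku subunit Xrcc6 (-0.36) fell, and the nuclease gene Dclre1c (0.75), Shld1 (0.66) and Shld2 (0.60) were among those that rose. With cGAMP 5 of these 15 fell and 2 rose. Of 9 translesion synthesis genes 6 fell and 1 rose with SB24011, with Polh at -0.90, Rev1 at -0.57, Rad18 at -0.48 and Primpol at 0.29; with cGAMP 3 fell.

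**Figure D4:**
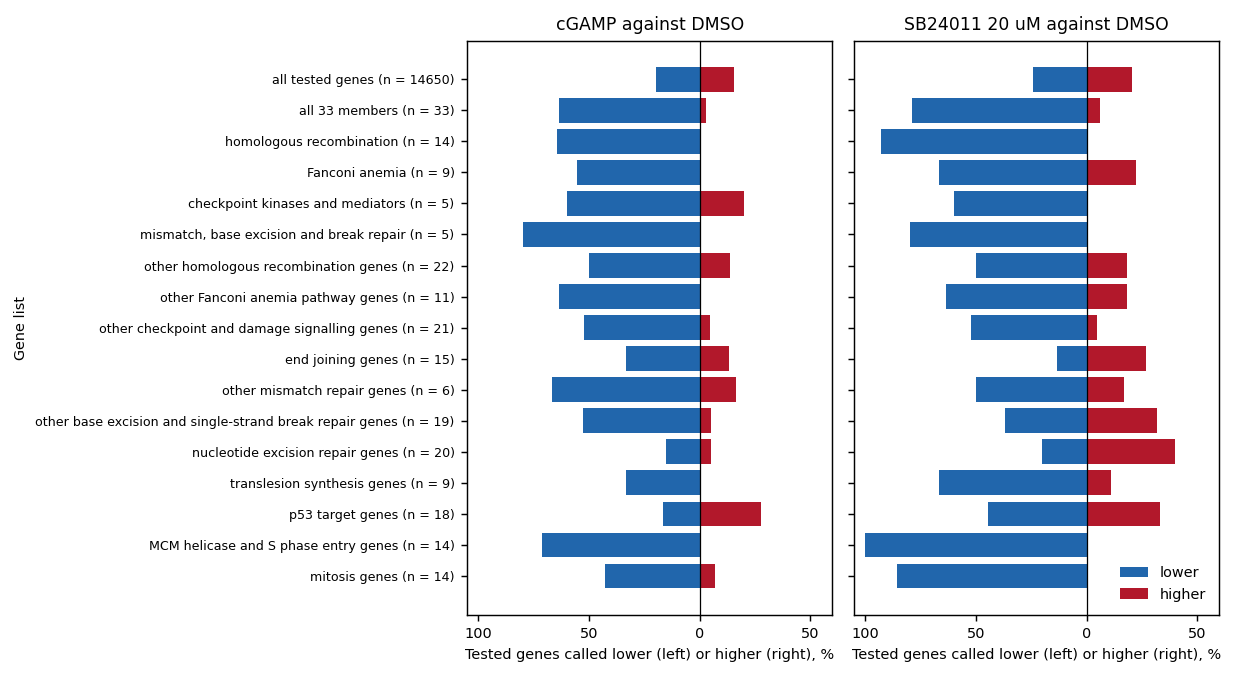
Share of the tested genes of each list that edgeR called lower (blue, to the left) or higher (red, to the right) at an adjusted p under 0.05, in percent, with cGAMP (left panel) and with 20 uM SB24011 (right panel), both against DMSO. The top bar gives all 14650 tested genes; among the members, homologous recombination genes were lower in 13 of 14 with SB24011, and all 14 S phase entry genes were lower there.

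On top of cGAMP, 20 uM SB24011 gave 6 falls and 7 rises among the 22 other homologous recombination genes, 4 and 1 among the 11 other Fanconi anemia genes, and 9 and 3 among the 21 other checkpoint genes. Of the 6 other mismatch repair genes 3 fell and 1 rose, and of the 9 translesion synthesis genes 6 fell and 1 rose. More rose than fell among the 15 end joining genes (2 fell and 6 rose, median 0.18), the 20 nucleotide excision repair genes (4 and 8, median 0.14) and the 19 base excision and single-strand break repair genes (5 and 7, median 0.087). Over all genes 20.6% fell and 21.7% rose in that comparison, with a median of 0.022.

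Targets of p53, the factor that ATM and the checkpoint kinases act on, did not move one way: with SB24011 8 of 18 fell and 6 rose (median -0.17), with cGAMP 3 fell and 5 rose, and with 20 uM SB24011 on top of cGAMP 5 fell and 6 rose. Gadd45a rose by 3.48 on the log2 scale with SB24011, Sesn2 by 1.91 and Bbc3 by 1.36, and Sesn1 (-0.89), Phlda3 (-0.82) and Aen (-0.73) fell. Gadd45a and Sesn2 are also known targets of the integrated stress response.

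Genes of the cell cycle moved with the members. Of 14 genes of the MCM helicase and of S phase entry, 14 fell with SB24011 (median -1.17), 10 with cGAMP (median -0.50) and 13 with 20 uM SB24011 on top of cGAMP (median -0.75), and none rose. Ccne2 (-2.85), Ccne1 (-2.42) and Cdc6 (-2.31) fell most with SB24011. Of 14 mitosis genes 12 fell with SB24011 (median -0.43), among them Aurkb (-0.89), Cdk1 (-0.66) and Top2a (-0.55), and with cGAMP 6 fell and 1 rose. No gene of any list was called with 7a. The part of a change in cycling cells in the members' falls was not tested.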

How the data were processed

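The series holds RNA sequencing of 18 libraries in 6 groups of 3. The authors deposited, per the file headers, raw read counts and FPKM for 45777 genes, and a second table of log2(FPKM + 1) values, quantile-normalized by the authors over 13908 genes. Per the submitters' processing notes, the tools were StringTie 2.1.3b, Trimmomatic 0.38, HISAT2 2.1.0 and Bowtie2 2.3.4.1, with GRCm38 (mm10). The sources used here do not state the read counter, its strand setting or what each tool did. Per the labels' protocols, libraries were made with a stranded mRNA kit. TPM values were not used.

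Members were matched by symbol. The members and all gene lists were chosen with earlier results of these data known. From the other 11 lists, up to 3 called genes with the largest falls and 3 with the largest rises under SB24011, at a mean of at least 1 CPM, were named; Slx4, Ercc4 and Polk each stand on more than one list. Some genes of these lists are not reported here. The deposited counts were tested in edgeR 4.0.16 (R 4.3.3): filterByExpr kept 14650 genes, libraries were scaled by TMM, and a robust quasi-likelihood model of the 6 groups was fitted over all 18 libraries, with 12 residual degrees of freedom. Two-sided p-values were adjusted by the Benjamini-Hochberg method over all genes tested in each of 9 comparisons, with a threshold of 0.05. Fold changes used a prior count of 0.125. SEs were derived from the F statistic, and 95% intervals from the same fit. The code was tested on simulated data. Positions, overlaps and promoters came from RefSeq (GRCm38.p6), where 45679 of the IDs and all 33 members were found; 13 members overlap another tested gene, 6 of them one with more counts.

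Alternatives were other scalings (DESeq2's relative log expression size factors, total counts), no filter on low counts, DESeq2 1.42.0, limma 3.58.1 on the deposited log2 values, fits of only the groups compared, a block for library set, and leaving out libraries. The titles number the libraries 1 to 6, 21 to 26 and 31 to 36, and these runs were taken as 3 sets. The labels do not say what the numbers mark. Deviations from group means correlated with a median r of 0.12 within sets and -0.061 between sets, and every same-set pair exceeded 0.1 for SB24011 against DMSO (0.125 to 0.178), 7a with cGAMP against cGAMP (0.137 to 0.183) and both compounds against SB24011 (0.105 to 0.176). For these the sets were taken to pair the libraries, but the counts and p-values above come from the fit without a block unless a block is named. With the block, 27 members were lower and 3 higher for SB24011 against DMSO. For both compounds against SB24011 14 were lower and 5 higher, and for 7a with cGAMP against cGAMP 0 and 0.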

Additional observations from a re-analysis of the deposited data

Results flagged for a closer look

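The interaction of cGAMP and 20 uM SB24011 marked 3 members whose response to SB24011 differed between cells with and without cGAMP, tested on the difference itself: Rad54l at 0.55, Brca1 at 0.54 and Brca2 at 0.52 on the log2 scale (edgeR, adjusted p = 0.0126, 0.0164 and 0.0342). For Rad54l and Brca1 SB24011 gave smaller falls with cGAMP (-0.42 and -0.47) than without it (-0.97 and -1.01). For Brca2 it gave 0.31 with cGAMP and -0.21 without. The calls were lost in 6, 9 and 16 of 22 alternatives for Rad54l, Brca1 and Brca2, with adjusted p up to 0.644, 0.515 and 0.535.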

How the results depend on the processing

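Of 300 counts of called members recomputed, 266 stayed within 1.5 times, which includes counts of 0 that stayed 0. Of 4950 single member values, 4658 kept their status as called or not called, 203 lost a call, 89 gained one and 0 reversed. The 4658 include values that were not called in either fit. Among these are all 528 values for 7a with cGAMP against cGAMP and all 528 for the 2 doses. They are therefore not a share of calls kept. Total counts alone gave 18 lower and 2 higher for both compounds against SB24011, and 1 higher for the interaction. DESeq2 gave 7 higher for the interaction and the 4 groups alone 0. Only the groups compared gave 2 higher for SB24011 against 7a with cGAMP. limma on the quantile-normalized values gave 1 higher for SB24011 against DMSO, 3 higher for 20 uM SB24011 on cGAMP, and 1 higher for the interaction. The cause was not tested for any of these.

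The replicate block for library set gave 14 lower for both compounds against SB24011 and 11 higher for the interaction, where the sets were not taken to pair the libraries; 18 of 18 libraries correlated best with their own set, a hint from the data and not from the design. With the block, SB24011 against DMSO gained Atr and Chek2.

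Leaving out 1 library, or 1 replicate of every group, gave 0 to 2 higher for SB24011 against DMSO (1 without DMSO replicate 1, 1 without replicate 1 or 2 of every group and 0 without replicate 3 of every group). It gave 1 to 4 higher for SB24011 against 7a with cGAMP, where 2 remained without cGAMP + 7a replicate 3 and 1 without replicate 2 or 3 of every group. For both compounds against SB24011 it gave 3 to 10 lower and 2 to 5 higher, with 4 lower without cGAMP + SB24011 20 uM replicate 1, and 3 lower and 2 higher without replicate 2 of every group. For 20 uM SB24011 on cGAMP, 3 were higher without replicate 2 of every group. The interaction ranged from 0 higher (without cGAMP replicate 1, or any replicate of every group) to 6 (without SB24011 replicate 1). Xrcc3 and Ung, with the lowest member counts, and Atm had the widest intervals in the plotted comparisons, so small changes of these were not detectable.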
